A study of Mus musculus with 4 samples.

Results

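Transcripts of 9 genes that encode the interleukin-12 and interleukin-27 cytokine family and its receptors were followed in mouse CD4 T cells cultured towards the T follicular helper (Tfh) state. The 9 were taken by gene symbol from a deposited table of 52636 genes, and all 9 had reads. They are the cytokine subunit genes Il12a, Il23a, Il27, Il12b and Ebi3 and the receptor chain genes Il12rb1, Il12rb2, Il23r and Il27ra. They were chosen by their read counts in these 4 libraries, with the difference between the groups already known, so the differences between groups are given for these genes as a description, without p-values.

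Cytokines of this family are heterodimers that share subunits. The p35 chain from Il12a joins the p40 chain from Il12b as IL-12 and joins Ebi3 as IL-35, the p19 chain from Il23a joins p40 as IL-23, and the p28 chain from Il27 joins Ebi3 as IL-27. Antigen-presenting cells are the best known source of IL-12, IL-23 and IL-27, and T cells carry the receptors. IL-12 signals through Il12rb1 and Il12rb2 to STAT4 and favours Th1 cells, IL-23 signals through Il12rb1 and Il23r to STAT3 and sustains Th17 cells, and IL-27 signals through Il27ra and gp130 to STAT3, among other factors, and raises Il10 in CD4 T cells.

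The study compared 2 RNA-seq libraries labelled E4BP4-conditional knockout (E4BP4-cKO) with 2 labelled wild-type, where E4BP4 is the protein name of the transcriptional regulator Nfil3. Per the labels, naive CD4 T cells came from spleens of C57BL/6 mice. All 4 cultures ran for 3 days with 10 ng/ml each of IL-6 and IL-21, 10 µg/ml each of antibodies to IFN-γ and IL-4, and 20 µg/ml of a TGF-β antibody. The labels give neither the Cre driver, the deleted part of the gene nor the age of the mice, and leave unsaid whether both libraries of a group had their own mouse or culture. The spread within a group may therefore be technical. Libraries held 26579592 and 19057077 reads counted in genes for E4BP4-cKO and 21543872 and 24447091 for wild-type. Levels are in CPM, counts per 1000000 reads after TMM scaling, which evens out differences in RNA composition, and 1 read corresponded to 0.0384 to 0.0545 CPM.

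Nfil3, the targeted gene, went against the labels: it had 4649 and 3965 counts in the E4BP4-cKO-labelled libraries, against 290 and 377 in wild-type-labelled ones (log2 fold change 3.81, SE 0.15, edgeR adjusted p = 0.00397). Counts cover the whole gene, so they do not show whether a deleted exon was read. Groups go by their labels throughout, and no difference here stands for loss of E4BP4.

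The labelled cell type was checked against lists of marker genes. All 8 T cell markers, Cd3e and Cd4 among them, were present in every library, with summed levels of 3520 and 3881 CPM in the E4BP4-cKO-labelled libraries and 3785 and 3859 CPM in wild-type-labelled ones. Of these 8, 0 were called, but they differed in opposite directions. Cd3d, Cd3g, Cd4 and Cd2 were higher without overlap, and Cd5, Cd28 and Lck lower without overlap. All 7 Tfh markers were detected, Bcl6 at 13.4 to 20.6 CPM and Cxcr5 at 5.72 to 8.56 CPM over the 4 libraries. Single Tfh markers differed in opposite directions, with 5 not called and a median log2 fold change of -0.47. Icos was called higher, at 301 and 416 CPM in the E4BP4-cKO-labelled libraries against 217 and 203 CPM in wild-type-labelled ones. Cd40lg was called lower, at 37.3 and 34.1 CPM against 67.8 and 68.35 CPM. Bcl6, Pdcd1 and Il21 were lower without overlap and not called. Markers of other cells also differed between the groups. The 10 macrophage and monocyte markers summed to 162 and 108 CPM in the E4BP4-cKO-labelled libraries, against 19.8 and 7.09 CPM in wild-type-labelled ones, and 6 of the 8 tested were called higher and 0 lower, although C1qa and C1qb had 0 counts in both E4BP4-cKO libraries. The 8 dendritic cell markers summed to 1007 and 1038 CPM, against 354 and 555 CPM, most of it from Ccr7, which T cells also express, while Clec9a, Cd209a and Siglech had at most 1 count in any library. Of the 5 tested, Ccr7, Itgax and Xcr1 were called higher, while Flt3 and Zbtb46 were not called and overlapped between the groups. Flt3 stood at 3.26 and 1.20 CPM, against 2.60 and 2.86 CPM, and Zbtb46 at 6.22 and 5.78 CPM, against 4.93 and 7.41 CPM. Itgax stood at 5.65 and 3.16 CPM, against 0.594 and 1.21 CPM (edgeR adjusted p = 0.0430), and Xcr1 at 2.38 and 2.94 CPM, against 0.320 and 0.549 CPM (edgeR adjusted p = 0.0295). The 7 regulatory T cell markers summed to 2688 and 2736 CPM, against 1373 and 2075 CPM, with Foxp3, Ikzf2 and Ctla4 called higher and 4 not called. Most of it came from Il2ra, at 2005.5 and 1774.8 CPM against 1085.4 and 1659.4 CPM, which was not called. Foxp3 stood at 5.45 and 9.92 CPM, against 1.28 and 1.65 CPM. The 8 CD8 and NK cell markers summed to 463 and 651 CPM, against 442 and 393 CPM. Most of it came from Nkg7, which overlapped at 324 and 488 CPM against 376 and 293 CPM. Klrd1 and Klrk1 were called higher, while Eomes was lower without overlap and not called, and Ncr1 had 0 counts in every library. The 8 mast cell and basophil markers summed to 2537 and 1900 CPM, against 1038 and 126 CPM, so wild-type replicate 2 stood far below wild-type replicate 1. The sum of the 8 B cell markers ran the other way, at 108 and 47.9 CPM in the E4BP4-cKO-labelled libraries against 389 and 398 CPM in wild-type-labelled ones. Most of the wild-type sum came from Ighm, at 241 and 243 CPM, and Igkc, at 99.5 and 106 CPM. These 2 were called lower and the other 6 were not called. Ebf1 overlapped between the groups, at 28.0 and 9.16 CPM against 10.6 and 22.9 CPM.

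**Figure D1:**
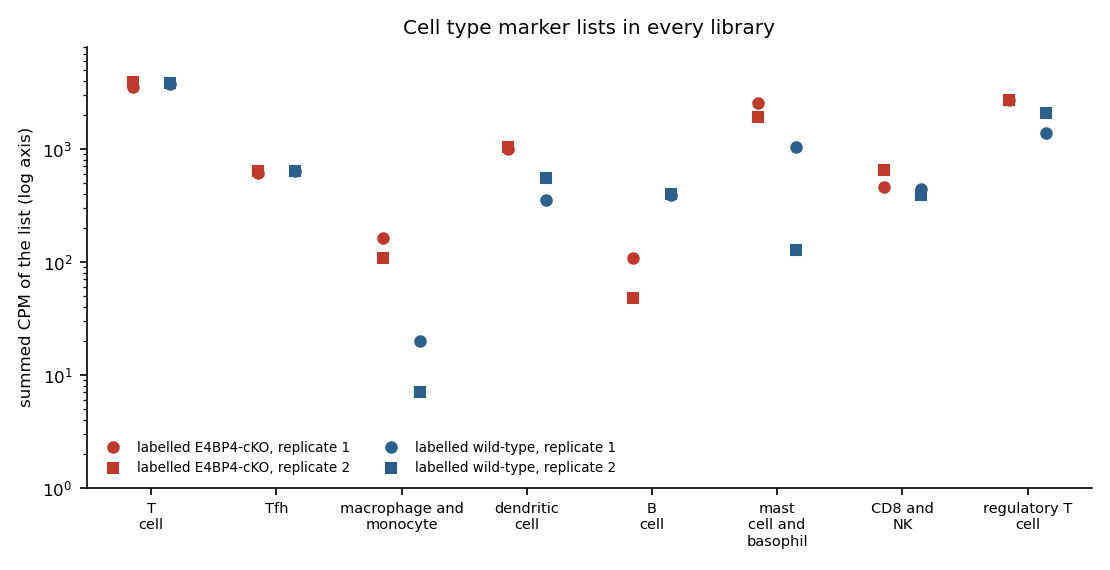
Summed CPM (log axis) of 8 cell type marker lists in each library, with E4BP4-cKO-labelled libraries in red to the left and wild-type-labelled ones in blue, and replicates told apart by shape. T cell and Tfh sums lie close together in all 4 libraries, although single markers of both lists differed in opposite directions. The macrophage and monocyte sums are 162 and 108 CPM against 19.8 and 7.09 CPM.

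Of the 9 genes, 5 passed the edgeR threshold (adjusted p under 0.05 over all 15503 genes tested) in the direction of higher RNA in the E4BP4-cKO-labelled libraries: Il27, Il12a, Ebi3, Il12rb2 and Il12rb1. Over all tested genes 7.68% were called higher and 6.53% lower, and since the genes were chosen with this comparison known, nothing is read from the share. None was called lower in that fit, where 3 of the 8 tested were not called. Il12b did not pass edgeR's filter on low counts and was not tested in that fit. It was not called in the 6 other fits that kept it. The groups did not overlap for 8 of the 9, 7 higher and 1 lower, where 34.6% of all tested genes were higher and 33.6% lower without overlap. The median log2 fold change of the 8 tested members was 1.18, against 0.02 over all tested genes. The calls depended on single libraries. With E4BP4-cKO replicate 1 left out, 4 genes were called higher (5.91% of all genes), and with E4BP4-cKO replicate 2 left out, 1 (1.49%). With wild-type replicate 1 left out, 2 were called higher (3.19%), and with wild-type replicate 2 left out, 4 (5.78%). Il27 was called in all 4 of these reduced fits and Il12rb1 in none of them. Under total library size 4 members were called higher (6.66% of all genes). The count was 5 with no filter on low counts (9.56%), with DESeq2 (12.1%), limma-voom (7.95%), RLE factors (7.3%), upper-quartile factors (7.58%), a filter at 10 counts in a group (8.13%) and the replicate block (8.87%). In bulk libraries fewer cells of a type and less RNA per cell cannot be told apart.

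**Figure D2:**
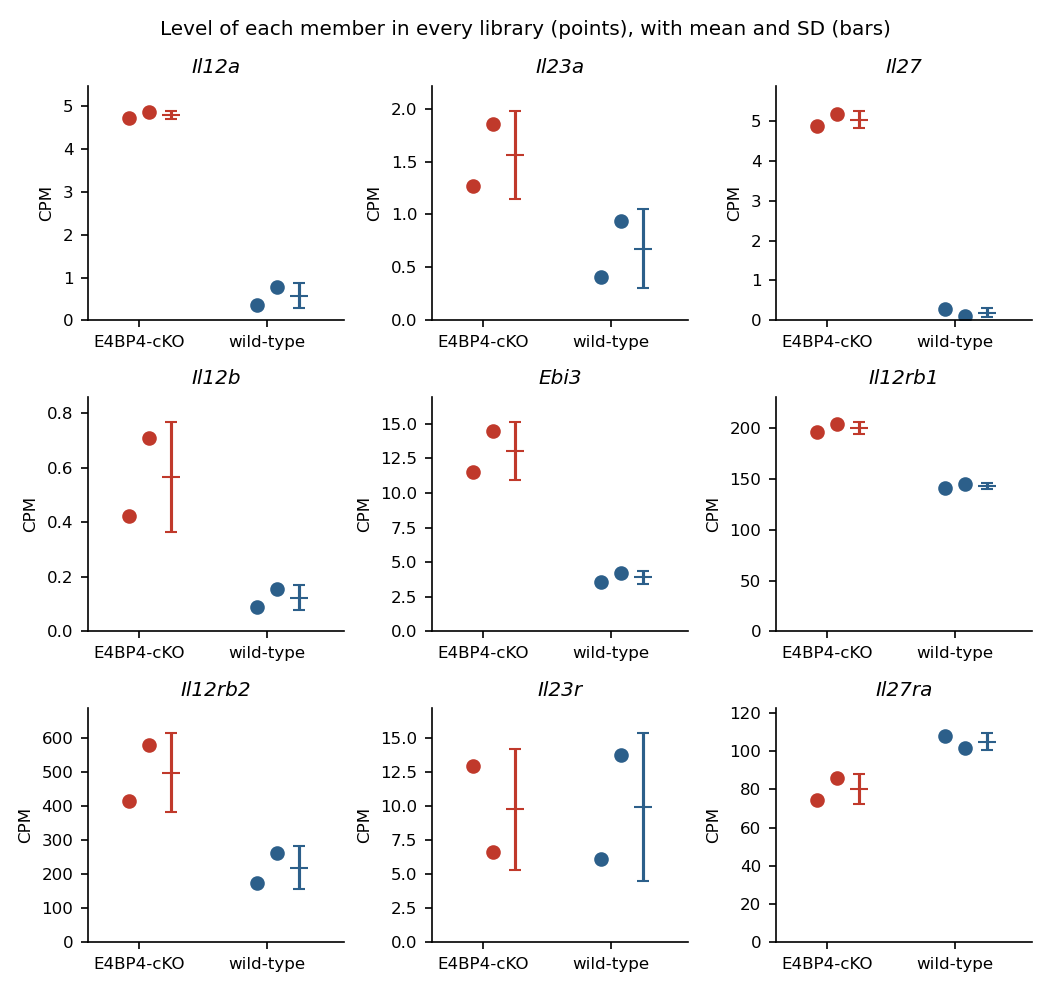
CPM of each of the 9 genes in every library (points), with the mean and SD of the 2 libraries of a group beside them, E4BP4-cKO-labelled libraries in red on the left and wild-type in blue on the right. Only Il23r overlaps between the groups, and Il27ra alone is lower in both E4BP4-cKO-labelled libraries.

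Il27, which encodes the p28 chain particular to IL-27 (chromosome 7, 126589010 to 126594941 in mm10, minus strand), showed the widest gap of the 9. It had 127 and 95 counts in the E4BP4-cKO-labelled libraries and 6 and 3 counts in wild-type-labelled ones, or 4.88 and 5.18 CPM against 0.274 and 0.118 CPM. Both E4BP4-cKO libraries were thus nearly equal and far above the other libraries, by 17.8 to 44.1 times in pairwise comparison. The log2 fold change was 4.67 (SE 0.46), and the ratio of pooled levels was 26.4 with a 95% exact counting interval of 13.6 to 58.4, which covers counting error only. Its last 103 exon bases, 10.1% of the gene's exon bases, are also covered by Apobr on the opposite strand. Apobr, the apolipoprotein B receptor gene, stood at 46.4 and 36.7 CPM in the E4BP4-cKO-labelled libraries, against 9.27 and 6.43 CPM in wild-type-labelled ones (log2 fold change 2.41, edgeR adjusted p = 0.0188). The counting is not stated to use strand, so reads in that stretch cannot be assigned to either gene.

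Ebi3 encodes the receptor-like chain that completes IL-27 and IL-35 (chromosome 17, 55952623 to 55957021, plus strand). Its counts were 300 and 266 in the E4BP4-cKO-labelled libraries, against 78 and 108 in wild-type-labelled ones, which are 11.5 and 14.5 CPM against 3.56 and 4.23 CPM. The groups were 2.72 to 4.07 times apart (log2 fold change 1.74, SE 0.24), and the libraries within a group differed by at most 1.26 times. An antisense RNA gene, Gm16712, covers 23.4% of the exon bases of Ebi3, and stood at 2.54 and 3.49 CPM against 1.69 and 1.06 CPM (not called, edgeR adjusted p = 0.103). Ebi3 was not called with E4BP4-cKO replicate 2 left out (log2 fold change 1.58), nor with wild-type replicate 1 left out (1.61).

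Il12a, the gene for p35, is shared by IL-12 and IL-35 (chromosome 3, 68690644 to 68698547, plus strand). It had 123 and 89 counts in the E4BP4-cKO-labelled libraries and 8 and 20 in wild-type-labelled ones, equal to 4.72 and 4.85 CPM against 0.365 and 0.784 CPM. The E4BP4-cKO libraries agreed within 1.03 times, and wild-type replicate 2 was 2.15 times above wild-type replicate 1. The log2 fold change was 3.03 (SE 0.43), and it ran between 2.60 and 3.69 with 1 library left out. No exon on the opposite strand overlaps those of Il12a in the annotation. Its call was lost only without E4BP4-cKO replicate 2 among the 4 reduced fits.

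The subunits that define IL-23 and complete IL-12 were scarce. Il23a, the p19 gene (chromosome 10, 128296139 to 128298752, minus strand), had 33 and 34 counts in the E4BP4-cKO-labelled libraries, against 9 and 24 in wild-type-labelled ones (1.27 and 1.85 CPM against 0.411 and 0.941 CPM). The groups did not overlap, but wild-type replicate 2 stood 2.29 times above replicate 1, and the log2 fold change of 1.17 (SE 0.51) was not called. Il12b, the p40 gene (chromosome 11, 44400063 to 44414033, plus strand), had 11 and 13 counts against 2 and 4, that is 0.422 and 0.709 CPM against 0.0913 and 0.157 CPM. The pooled ratio was 4.27, with a 95% exact counting interval of 1.70 to 12.8. With no filter, and with a filter at 10 counts in a group, its log2 fold change was 2.09 and not called. Per kilobase of gene length Il12b was the lowest of the 9 in both groups, and only 4.57% of tested genes had a lower level.

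Ratios between subunits within a library do not depend on how libraries are scaled. Per length, Ebi3 RNA exceeded Il27 RNA 2.06 and 2.44 times in the E4BP4-cKO-labelled libraries, against 11.3 and 31.4 times in wild-type-labelled ones. The IL-27 subunits were thus closer to each other in RNA level in the E4BP4-cKO-labelled libraries. The wild-type ratios rest on only 6 and 3 counts of Il27. For the IL-35 subunits, Ebi3 exceeded Il12a 3.55 and 4.35 times in the E4BP4-cKO-labelled libraries, against 14.2 and 7.85 times in wild-type-labelled ones. For the IL-12 subunits, Il12a exceeded Il12b 12.9 and 7.92 times, against 4.63 and 5.78 times, with at most 13 counts of Il12b behind any of these values. For IL-23, Il23a exceeded Il12b 2.63 and 2.29 times, against 3.94 and 5.25 times. In every library Il12b was therefore the scarcer chain of both its cytokines at the RNA level.

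Among the myeloid markers, Cd14 was at 65.1 and 27.3 CPM and Cd68 at 27.1 and 40.5 CPM in the E4BP4-cKO-labelled libraries, against 2.37 and 1.29 CPM and 6.39 and 4.15 CPM in wild-type-labelled ones. They moved with the cytokine subunit genes between the groups. Within E4BP4-cKO the macrophage and monocyte sum was 162 CPM in replicate 1 and 108 CPM in replicate 2, where Cd68 ran the other way. In the same libraries Il27 stood at 4.88 and 5.18 CPM and Il12a at 4.72 and 4.85 CPM, near equal in both. Il23a stood at 1.27 and 1.85 CPM and Ebi3 at 11.5 and 14.5 CPM. Within wild-type that sum was 19.8 CPM in replicate 1 and 7.09 CPM in replicate 2, while Il12a stood at 0.365 and 0.784 CPM, Il23a at 0.411 and 0.941 CPM and Ebi3 at 3.56 and 4.23 CPM in the same libraries. Il27 stood at 0.274 and 0.118 CPM there, from 6 and 3 counts. The dendritic cell sum was 1007 and 1038 CPM in E4BP4-cKO and 354 and 555 CPM in wild-type. With 2 libraries in a group, these orders cannot show which cells the subunit RNA came from. The part of macrophages, monocytes or dendritic cells in the subunit levels was not tested.

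Per length, the receptor chains other than Il23r stood above every cytokine subunit in all 4 libraries. Il12rb2, the signalling chain of the IL-12 receptor (chromosome 6, 67291318 to 67376188, minus strand), had 10843 and 10665 counts in the E4BP4-cKO-labelled libraries and 3831 and 6731 in wild-type-labelled ones, or 416 and 582 CPM against 175 and 264 CPM. Both groups were spread, by 1.40 and 1.51 times, yet the lower E4BP4-cKO library stood 1.58 times above the higher wild-type library. The log2 fold change was 1.19 (SE 0.26), and the call was lost with E4BP4-cKO replicate 2 left out (0.94) or wild-type replicate 1 left out (0.91). Serbp1, an RNA-binding protein gene on the opposite strand, covers 40.0% of the exon bases of Il12rb2, from 67291318 to 67292736 and from 67295212 to 67295311, at the 3′ end of the gene. Serbp1 stood at 689 and 699 CPM in the E4BP4-cKO-labelled libraries, against 821 and 767 CPM in wild-type-labelled ones (log2 fold change -0.19, edgeR adjusted p = 0.316). Without a stated strand setting, reads in the shared stretch cannot be assigned, so the level of Il12rb2 is uncertain.

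Il12rb1, the chain shared by the receptors for IL-12 and IL-23 (chromosome 8, 70808449 to 70821424, plus strand), had 5103 and 3740 counts in the E4BP4-cKO-labelled libraries, against 3086 and 3695 in wild-type-labelled ones. These are 196 and 204 CPM against 141 and 145 CPM, with a log2 fold change of 0.48 (SE 0.10). It was the smallest of the 5 called differences and the most even within groups, where libraries differed by at most 1.04 times. The call was lost in every fit with 1 library left out, while the log2 fold change stayed between 0.46 and 0.51, and it was lost under scaling to total library size (0.40). Per length Il12rb2 exceeded Il12rb1 2.30 and 3.09 times in the E4BP4-cKO-labelled libraries, against 1.34 and 1.97 times in wild-type-labelled ones.

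Il27ra, the ligand-binding chain for IL-27 (chromosome 8, 84030294 to 84042589, minus strand), ran the other way. It had 1945 and 1573 counts in the E4BP4-cKO-labelled libraries, against 2368 and 2598 in wild-type-labelled ones, or 74.7 and 85.8 CPM against 108 and 102 CPM. The groups did not overlap, and the log2 fold change of -0.39 (SE 0.11) was not called by edgeR, but was called lower with DESeq2 (11.0% of all genes), with no filter on low counts (7.98%) and under total library size (10.6%). Its partner gp130, encoded by Il6st, stood at 18.0 and 31.7 CPM against 14.4 and 17.1 CPM (not called, edgeR adjusted p = 0.176). Per length Il27ra exceeded Il6st 13.2 and 8.60 times in the E4BP4-cKO-labelled libraries, against 23.9 and 18.9 times in wild-type-labelled ones.

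Il23r, the chain particular to the IL-23 receptor (chromosome 6, 67422932 to 67491855, minus strand), had 337 and 122 counts in the E4BP4-cKO-labelled libraries and 134 and 352 in wild-type-labelled ones. The levels of 12.9 and 6.65 CPM against 6.12 and 13.8 CPM overlapped, with a high and a low library in each group. The log2 fold change was -0.02 (SE 0.49), and its sign turned with the library left out, at -0.59 and 0.39 when E4BP4-cKO replicates 1 and 2 were left out in turn, and at -0.49 and 0.68 when wild-type replicates 1 and 2 were.

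**Figure D3:**
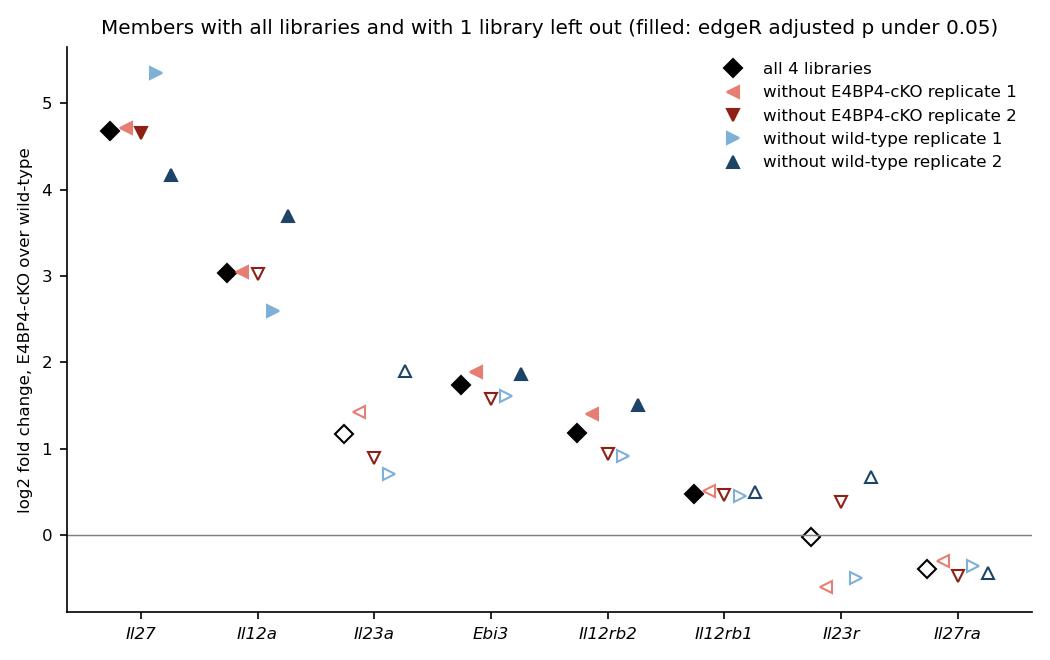
Log2 fold change, E4BP4-cKO over wild-type, of the 8 tested genes with all 4 libraries (diamonds) and with each library left out in turn (triangles), filled where the edgeR adjusted p is under 0.05. Il27 is filled throughout, Il12rb1 only with all 4 libraries, and Il23r lies on both sides of 0.

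Per kilobase of gene length the order of levels was led in both groups by Il12rb2, Il12rb1 and Il27ra, whose libraries did not overlap with the next gene in the order. In the E4BP4-cKO-labelled libraries these had means of 132, 48.7 and 22.96 CPM per kilobase, followed by Ebi3 at 11.1, Il27 at 4.93, Il23r at 3.94, Il12a at 2.82, Il23a at 0.695 and Il12b at 0.288. In the wild-type-labelled libraries the means were 57.8, 34.8 and 30.04 CPM per kilobase, then 4.002 for Il23r, 3.33 for Ebi3, 0.338 for Il12a, 0.301 for Il23a, 0.192 for Il27 and 0.0631 for Il12b. Il27 had rank 5 in the E4BP4-cKO-labelled libraries and rank 8 in wild-type-labelled ones. Neighbours overlapped for Il27, Il23r and Il12a in the E4BP4-cKO-labelled libraries, and for Il23r and Ebi3 and for Il12a, Il23a and Il27 in wild-type-labelled ones. Against all tested genes, averaged over the 4 libraries, 96.5% had a lower level per length than Il12rb2, 90.6% than Il12rb1, 57.1% than Ebi3 and 36.1% than Il27.

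**Figure D4:**
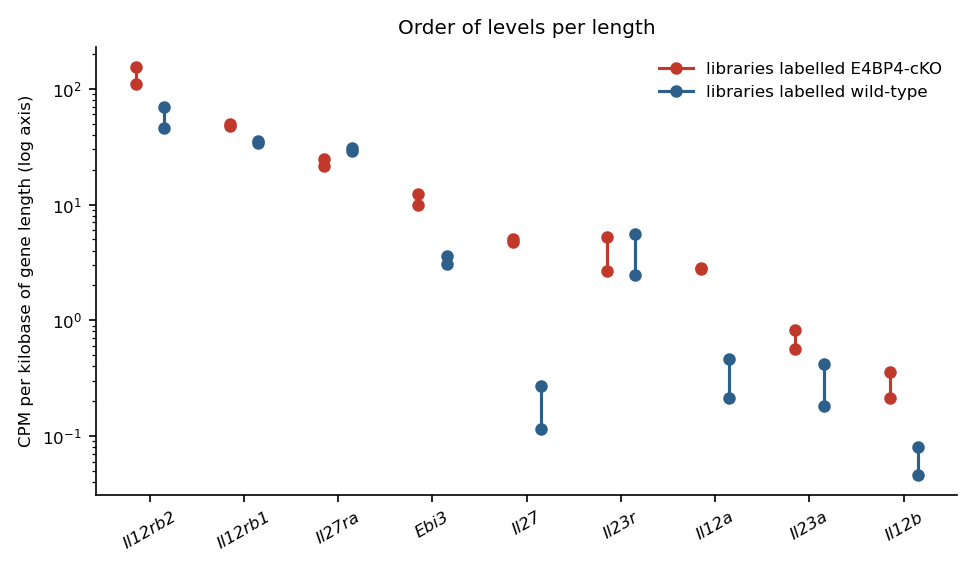
CPM per kilobase of gene length (log axis) of the 9 genes, ordered by their mean in the E4BP4-cKO-labelled libraries, with both libraries of a group joined by a line, E4BP4-cKO in red to the left of wild-type in blue. Il27 spans the widest distance between groups, at means of 4.93 CPM per kilobase in E4BP4-cKO against 0.192 in wild-type, and the receptor chains other than Il23r stand above all cytokine subunits.

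Of the 5 called genes, Ebi3, Il12a and Il12rb2 have promoter sequences in the RefSeq table for GRCm38.p6, each running from 250 bases before to 50 bases after a transcription start. They are shown because these genes stood higher together in the E4BP4-cKO-labelled libraries. Capitals mark matches, on either strand, to the NF-κB motif (GGGA, any 4 bases, then CC) or, in Il12rb2, the STAT motif TTCNNNGAA. The windows are chr17:55952373-55952672 on the plus strand for Ebi3, chr3:68691174-68691473 on the plus strand for the second start of Il12a, and chr6:67376139-67376438 on the minus strand for Il12rb2.
Ebi3: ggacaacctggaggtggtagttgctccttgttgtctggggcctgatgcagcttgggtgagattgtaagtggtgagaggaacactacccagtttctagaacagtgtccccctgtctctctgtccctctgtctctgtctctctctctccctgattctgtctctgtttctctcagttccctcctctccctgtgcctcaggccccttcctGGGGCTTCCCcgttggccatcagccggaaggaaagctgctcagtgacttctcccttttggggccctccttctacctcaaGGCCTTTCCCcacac
Il12a: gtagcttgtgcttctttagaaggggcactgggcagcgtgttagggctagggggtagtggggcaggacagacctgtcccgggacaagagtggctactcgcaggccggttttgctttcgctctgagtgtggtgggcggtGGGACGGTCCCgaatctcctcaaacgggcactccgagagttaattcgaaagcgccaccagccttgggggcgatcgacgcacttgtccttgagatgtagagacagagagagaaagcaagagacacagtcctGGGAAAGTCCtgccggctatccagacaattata
Il12rb2: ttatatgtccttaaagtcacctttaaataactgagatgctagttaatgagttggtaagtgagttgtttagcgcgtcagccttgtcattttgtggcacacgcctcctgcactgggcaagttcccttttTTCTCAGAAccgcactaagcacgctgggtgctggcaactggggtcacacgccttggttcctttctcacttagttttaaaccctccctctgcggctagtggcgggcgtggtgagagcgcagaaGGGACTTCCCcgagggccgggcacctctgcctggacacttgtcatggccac
The NF-κB motif was found in 20.7% of the 32851 promoters in the table and the STAT motif in 8.30%. In Ebi3 the NF-κB motif begins at -44 and at 36 relative to the start, in the second Il12a promoter at -113, at -112 and at 18, where the first pair overlap on opposite strands, and in Il12rb2 at -1. The STAT match in Il12rb2 begins at -123. The first Il12a promoter and those of Il12b and Il23r hold no match to either. The E4BP4 motifs TTATGTAA and TTACGTAA were in 0 of the 6 promoters of the 5 genes in the table and in 1.06% of all promoters. With 1 mismatch allowed, 2 of the 6 held an E4BP4 motif, as did 17.4% of all promoters. The AP-1 motif TGANTCA and an IRF motif (GAAA, any 2 bases, then GAAA) were also in 0 of the 6, against 7.81% and 3.44% of all promoters. A match describes letters only and is no evidence of binding.

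Genes that act below these receptors, and inducers of the cytokine genes in antigen-presenting cells, were described from 5 lists. They held 44 genes, of which 42 were tested, 14 called higher and 3 lower. Over all tested genes 7.68% were called higher and 6.53% lower. The lists were written with earlier results of these data known, so nothing is read from their shares. Of 9 signalling genes, 2 were called higher and 0 lower. Stat3, the transcription factor used by IL-23 and IL-27, stood at 645 and 844 CPM in the E4BP4-cKO-labelled libraries, against 400 and 467 CPM in wild-type-labelled ones (log2 fold change 0.78, SE 0.18, edgeR adjusted p = 0.0476). Socs3, its feedback inhibitor, stood at 419 and 597 CPM against 176 and 250 CPM (1.25, SE 0.25, edgeR adjusted p = 0.0372). Both are also used by IL-6 and IL-21, which were in all 4 cultures. Stat4, the main transducer of IL-12, differed by less than its spread, at 72.5 and 67.9 CPM against 67.7 and 71.1 CPM (0.02, SE 0.10, edgeR adjusted p = 0.924), and the groups overlapped. Jak2 stood at 483 and 397 CPM against 694 and 632 CPM and was not called (edgeR adjusted p = 0.0574). Of the called genes, 0 were left with E4BP4-cKO replicate 2 or wild-type replicate 1 left out, and 1 with wild-type replicate 2 left out.

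Known IL-12 target genes did not move together. Of 9, 1 was called higher and 3 lower, with a median log2 fold change of 0.13. Il18r1, a chain of the IL-18 receptor, stood at 16.5 and 19.1 CPM in the E4BP4-cKO-labelled libraries, against 102 and 62.3 CPM in wild-type-labelled ones (log2 fold change -2.20, SE 0.26, edgeR adjusted p = 0.0213). Tbx21, the T-bet gene that directs Th1 cells, stood at 106 and 80.1 CPM against 179 and 144 CPM (-0.80, SE 0.18, edgeR adjusted p = 0.0473), and the transcription factor gene Hlx at 20.01 and 11.997 CPM against 54.0 and 33.6 CPM (-1.45, SE 0.33, edgeR adjusted p = 0.0471). Furin, a proprotein convertase gene, went the other way, at 865 and 677 CPM against 119 and 89.9 CPM (2.89, SE 0.21, edgeR adjusted p = 0.0141). Ifng, the Th1 cytokine gene, stood at 16.1 and 32.7 CPM against 10.3 and 11.95 CPM and was not called (edgeR adjusted p = 0.0870). With E4BP4-cKO replicate 2 left out the 3 lower calls became 0, with wild-type replicate 1 left out 1, and with E4BP4-cKO replicate 1 left out 2 genes were called higher.

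Of the 8 genes of the Th17 programme that IL-23 sustains, 6 were tested and 1 was called higher, 0 lower. It was the cytokine gene Il22, at 8.87 and 7.63 CPM in the E4BP4-cKO-labelled libraries against 0.594 and 2.23 CPM in wild-type-labelled ones (log2 fold change 2.52, SE 0.59, edgeR adjusted p = 0.0476). Il17a, a signature Th17 cytokine gene, stood at 0.538 and 2.67 CPM against 0 and 0.0784 CPM and was not called (edgeR adjusted p = 0.0558). Il22 kept its call in 1 of the 4 reduced fits, that with wild-type replicate 2 left out, and lost it under upper-quartile factors and with the replicate block. The list had 3 calls with wild-type replicate 2 left out, and 0 with E4BP4-cKO replicate 2 or wild-type replicate 1 left out.

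Of the 11 listed IL-27 target genes, 9 were called higher in the E4BP4-cKO-labelled libraries and 0 lower. Over all tested genes 7.68% were called higher. The median log2 fold change was 1.78, against 0.02 over all tested genes. Because the list was written with earlier results of these data known, nothing is read from its share or median. Havcr2, the gene for the inhibitory receptor TIM-3, stood at 22.5 and 28.4 CPM in the E4BP4-cKO-labelled libraries, against 3.65 and 2.78 CPM in wild-type-labelled ones (log2 fold change 2.98, SE 0.24, edgeR adjusted p = 0.0141). Tigit, another inhibitory receptor gene, stood at 91.4 and 132 CPM against 25.3 and 28.8 CPM (2.05, SE 0.20, edgeR adjusted p = 0.0188). Procr, which encodes a receptor for protein C, was at 73.7 and 51.4 CPM against 2.56 and 3.88 CPM (4.27, SE 0.29, edgeR adjusted p = 0.0123), and Pdpn, the podoplanin gene, at 7.45 and 8.40 CPM against 0.274 and 0.509 CPM (4.30, SE 0.38, edgeR adjusted p = 0.0159). Il10, Prdm1, Ahr, Cd274 and Lag3 were the other called genes. Il21, which IL-27 raises in mouse CD4 T cells, stood lower at 142 and 82.8 CPM against 157 and 213 CPM and was not called (edgeR adjusted p = 0.141). Of the 9 called genes, 7 and 5 were still called when E4BP4-cKO replicates 1 and 2 were left out in turn, and 5 in each case when wild-type replicates 1 and 2 were. Cd274, Havcr2, Tigit, Procr and Pdpn were called in all 4 of these fits. Other cytokines also raise most of these genes, and the macrophage and monocyte sum of 162 and 108 CPM against 19.8 and 7.09 CPM moved with them, a part that was not tested.

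Of 7 transcription factor genes known to drive Il12b, Il27 or Ebi3 in antigen-presenting cells, 1 was called higher and 0 lower. Irf8 stood at 162 and 317 CPM in the E4BP4-cKO-labelled libraries, against 64.6 and 66.2 CPM in wild-type-labelled ones (log2 fold change 1.87, SE 0.32, edgeR adjusted p = 0.0301), and it was not called without wild-type replicate 1. Spi1, the PU.1 gene of myeloid cells, stood at 40.2 and 25.8 CPM against 14.3 and 2.78 CPM and was not called (edgeR adjusted p = 0.118). Rel and Nfkb1, genes of NF-κB subunits, had log2 fold changes of 0.54 and 0.19 and were not called (edgeR adjusted p = 0.131 and 0.305).

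**Figure D5:**
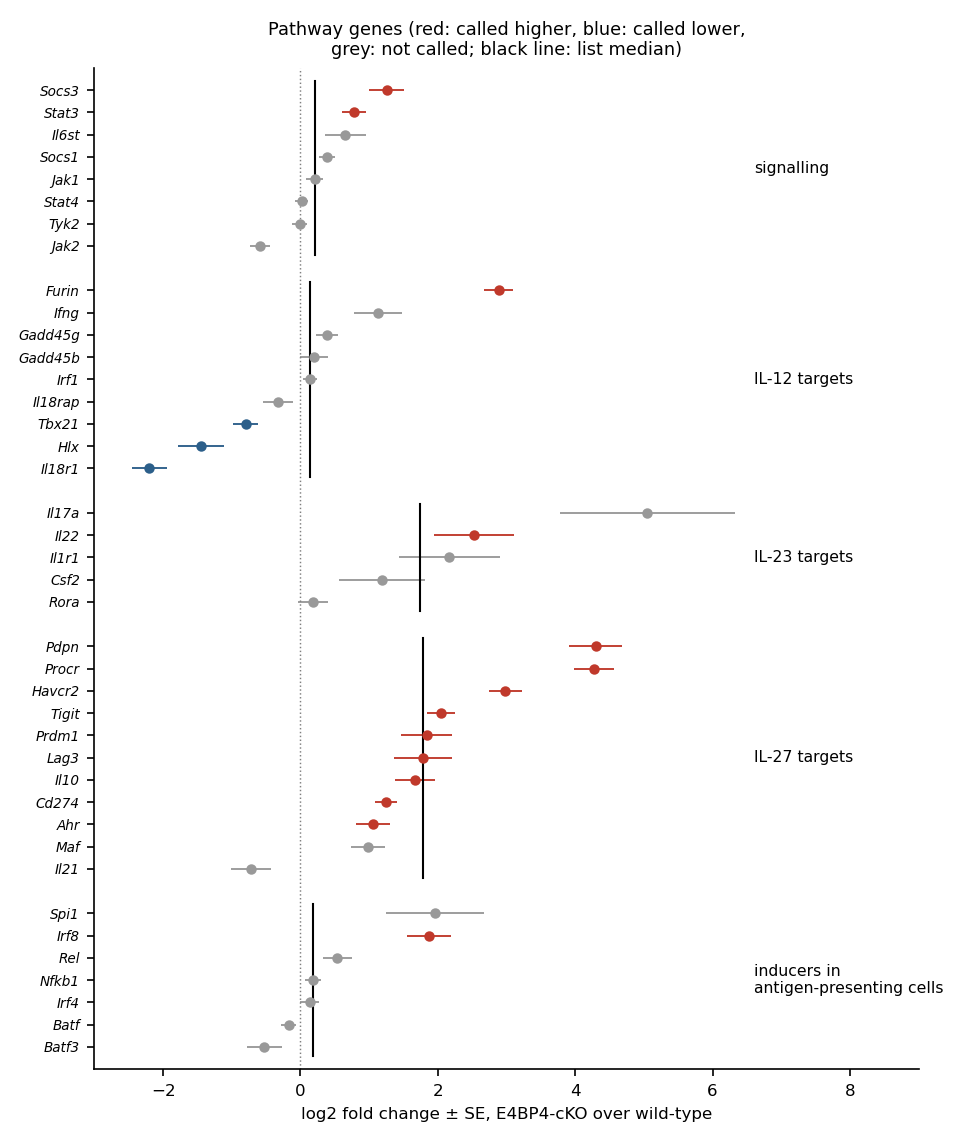
Log2 fold change with SE, E4BP4-cKO over wild-type, of 40 of the 42 tested genes of the 5 lists, red where called higher, blue where called lower and grey where not called, with the median of all tested genes of each list as a black line. The medians are 1.78 for IL-27 targets and 0.13 for IL-12 targets, in lists written with earlier results of these data known.

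Over the 4 libraries, the genes whose centred log2 levels lay nearest to each called gene were picked among protein-coding genes with a mean of at least 1 CPM. For Il27 they were Gcnt1, Cd34 and Mmp8, at distances of 0.190, 0.241 and 0.263. Levels had 0.5 CPM added before the log, more than the 0.274 and 0.118 CPM of Il27 in wild-type, which narrows its differences. The log2 fold changes of Gcnt1, Cd34 and Mmp8 were 2.89, 3.09 and 5.14, against 4.67 for Il27. For Ebi3 the nearest were Creb3l2, Il4 and Tmem205 at 0.0288 to 0.0852, for Il12a Rasa4, Lilrb4a and Nt5e at 0.0888 to 0.175, for Il12rb2 Zfp983, Padi3 and Rpl17 at 0.0335 to 0.0607, and for Il12rb1 Sos2, Ssr3 and Golga7 at 0.0166 to 0.0350. Each distance rests on 4 libraries and says nothing of shared control.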

How the data were processed

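RNA was sequenced from 2 E4BP4-cKO-labelled and 2 wild-type-labelled cultures, grouped by labelled genotype. The authors deposited raw gene counts in whole numbers. CASAVA, HISAT2, featureCounts and the build mm10 are named, without versions, per the submitters' processing notes, while strand setting, annotation release and handling of multi-mapped reads are not given in these sources. Coordinates and gene lengths in bases are those of the deposited table.

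CPM values used TMM factors of 0.962 to 1.04. Of 28039 genes with a count, 15503 passed edgeR's filterByExpr and were tested with edgeR 4.0.16 (glmQLFit and glmQLFTest, no covariate) in R 4.3.3, two-sided, with Benjamini-Hochberg adjustment over all of them, with calls made below an adjusted p of 0.05. Fold changes (log2) are E4BP4-cKO over wild-type, and the SE is the fold change over the root of the quasi-likelihood F. Exact permutation with 2 against 2 libraries allows no p smaller than 0.333 and was left aside. Alternatives used DESeq2 1.42.0, limma-voom from limma 3.58.1, other scaling factors, other filters, each library left out and the replicate number as a block. The edgeR scripts were tested on simulated counts. The libraries of a group differed by more than sampling noise (chi-square per degree of freedom 29.9 for E4BP4-cKO and 23.5 for wild-type) and were kept separate.

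The members and lists were chosen with earlier results of these data known. Every member was named. In each list the called genes were named, up to 4 with the lowest p, with others chosen after their values were seen. The 3 nearest genes of each called member were found by Euclidean distance of centred log2(CPM + 0.5), leaving out genes with names of the form Gm or Rik. Exon overlap used GENCODE M21, on the same build, and promoters came from RefSeq. Values of 2 list genes are not reported here, though the counts and medians of their lists include them.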

Additional observations from a re-analysis of the deposited data

How the results depend on the processing

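With all 4 libraries, 5 members were called higher and 0 lower. The higher count was 4 under scaling to total library size and 5 under the other 7 settings that kept all libraries, and ran from 1 to 4 with a library left out. The lower count was 1, Il27ra, under total library size, without a filter and with DESeq2. Il23r turned to a log2 fold change of 0.041 with limma-voom and 0.017 with the replicate block, and ran from -0.59 to 0.68 with a library left out. The cause of these shifts was not tested.

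Over all genes, 1191 were called higher and 1013 lower. DESeq2 called 1834 and 1676, no filter 2680 and 2237, and total library size 1033 and 1636, which lowers the share of calls that are higher to 38.7%, against 54.0% with TMM factors. With a library left out, higher calls ran from 246 to 954 and lower calls from 74 to 806. In these fits a lone library is assumed to vary like the libraries of the other group.

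In the signalling list, higher calls were 3 with no filter and with DESeq2. Higher calls were 1 under total library size and lower calls 1 under total library size, no filter, DESeq2, limma-voom and the replicate block. With a library left out they ran from 0 to 2 higher and 0 to 1 lower. IL-12 targets had 3 called higher without a filter and 2 with DESeq2, and 1 to 2 higher and 0 to 3 lower with a library left out. IL-23 targets had 0 called higher under upper-quartile factors, 5 without a filter and 2 with DESeq2, and 0 to 3 with a library left out. IL-27 targets ran from 5 to 7 higher and 0 to 1 lower with a library left out, and 1 was lower without a filter. The inducers had 3 higher and 1 lower without a filter and 2 higher with the replicate block, and 1 to 2 higher with a library left out.

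Scaling to total library size put Il12a at 4.65 CPM in E4BP4-cKO against 4.79 CPM with TMM factors, and Il12rb1 at 194 CPM in E4BP4-cKO and 147 CPM in wild-type. Allowing 1 mismatch raised the promoters with an E4BP4 motif from 0 to 2.

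Replicate numbers are shared by the groups, with no stated pairing. Deviations from the group means correlated at 0.05 between same-numbered libraries, over 15503 genes, a value that cannot show whether they were paired. With the replicate number as a block, edgeR called 1375 genes higher and 1064 lower, and 5 members higher and 0 lower. Depth limits Il12b, with 24 counts in E4BP4-cKO and 6 in wild-type, and Il27 in wild-type, with 9.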
